A study of Homo sapiens with 8 samples.

Results

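The genes described here are those that build cholesterol and fatty acids. The set lists 33 genes by name, in 4 roles: 7 enzymes of the mevalonate pathway, 11 enzymes of the sterol branch, 6 genes of the SREBP machinery with a sterol carrier, and 9 enzymes that make, desaturate and elongate fatty acids. A member counted as measured where any probe of its symbol was detected (detection p under 0.05) in 2 or more of the 8 hybridisations, and 29 of the 33 were, among 11182 genes measured in all. Each of these 29 was detected on all 8 arrays, so that no member was kept through a single group. Of the other members, FDFT1 is not listed in the probe table used here, the probe of SREBF2 was detected on 1 array (signal 59.6 to 80.5), and those of STARD4 (signal 50.8 to 70.1) and FADS2 (signal 48.6 to 66.1) on 0 arrays. The levels of these 4 genes are therefore not given.

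The cells were SW1353, an established human chondrosarcoma line that serves as a model of the chondrocyte. The 4 groups had 2 arrays each: HDAC6 siRNA with IL-1 (siHDAC6 + IL-1), control siRNA with IL-1 (siCon + IL-1), HDAC6 siRNA alone (siHDAC6) and control siRNA alone (siCon). Cells of all 4 groups were transfected, with a QIAGEN siRNA to HDAC6 or with the AllStars siRNA that targets no gene. IL-1α was added 24 h later for 6 h where it was given (the duration in the labels, while a figure legend to these arrays has 8 h). Per the methods, a night in medium free of serum came between the 24 h of transfection and stimulation, which would make the interval longer. Knockdown on these arrays therefore rests on 1 siRNA product in 1 line, the source of the duplicates is not stated beyond their being duplicate treatments, and p-values measure the spread between such arrays.

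The arrays detected 14315 to 16659 probes (29.3 to 34.1% of all), and replicates correlated at 0.988 to 0.992. HDAC6, a cytoplasmic deacetylase of tubulin, was at 4.84 and 4.87 on the normalized log2 scale in siHDAC6 + IL-1 and at 6.63 and 6.46 in siCon + IL-1, and at 5.14 and 4.87 in siHDAC6 against 6.36 and 6.32 in siCon. It was not detected on either siHDAC6 + IL-1 array, which makes it at least 3-fold lower there than in siCon + IL-1. NFKBIA, the inhibitor that NF-κB induces, rose by 3.02 (log2) with IL-1 in siHDAC6 cells and by 3.01 in siCon cells. Of 11 chondrocyte markers, SOX9, COL11A1 and HAPLN1 were detected on all 8 arrays, COL2A1, COL9A1 and COL11A2 on some, and ACAN, COL9A2, COL9A3, MATN3 and COMP on none. Of the markers of other cell types, CD68, KRT8 and KRT18 were detected on all 8 arrays and CD163, EPCAM, PECAM1 and VWF on some. PTPRC, CD3E, CD14, KRT5, CDH1, CDH5 and KDR were detected on none.

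Cholesterol is made from acetyl-CoA through mevalonate, farnesyl diphosphate, squalene and lanosterol, and fatty acids from the same acetyl-CoA by carboxylation and chain extension. Both sets of genes are driven by SREBP transcription factors, which lie in the endoplasmic reticulum membrane bound to SCAP. When sterols are scarce, SCAP carries SREBP to the Golgi, where proteases release the active factor, and when sterols are plentiful, INSIG1 or INSIG2 holds SCAP back. Cells kept without serum take up no lipoprotein cholesterol and rely on this synthesis for their membranes.

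To see which genes of this set changed when HDAC6 was depleted, siHDAC6 cells were compared with siCon cells with IL-1, without IL-1, and over both conditions (4 arrays against 4). Over both conditions 8 of the 29 members were called, at an adjusted p under 0.05 over all 11182 genes in limma. FADS1 fell, and MVD, FDPS, ACAT2, SQLE, SC5D, DHCR7 and SCAP rose, each by less than 0.50 on the log2 scale. In bulk RNA of this kind, fewer expressing cells and less RNA per cell cannot be told apart. The 7 higher members stood beside 7.29% of all genes called higher, and the 1 lower member beside 6.90% called lower. All genes include dimmer ones, detected on as few as 2 arrays. With a stricter detection filter 1129 of 9173 genes were called higher and 956 lower over both conditions, and 11 of the 29 members were called. With IL-1 the members called were 2 higher (ACAT2 and MVD) and 2 lower (FADS1 and INSIG2), where 3.65% of all genes were called higher and 4.42% lower. Without IL-1, SC5D was called higher and FADS1 lower, where 1.64% of all genes were called higher and 2.41% lower.

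Most members had positive values with siHDAC6. Over both conditions 20 of 29 members (69.0%) had a log2 fold change above 0, against 52.7% of all genes, and their median was 0.20 against 0.01. The median was 0.11 with IL-1 (all genes 0.03) and 0.23 without IL-1 (all genes 0.01). By role, the median over both conditions was 0.29 for the mevalonate enzymes, 0.19 for the sterol branch, 0.12 for the fatty acid enzymes and 0.03 for the SREBP machinery. When arrays were scaled by their medians instead of by quantiles, 21 members were above 0, but FADS1 was the single member called in each of the 3 siHDAC6 comparisons.

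**Figure D1:**
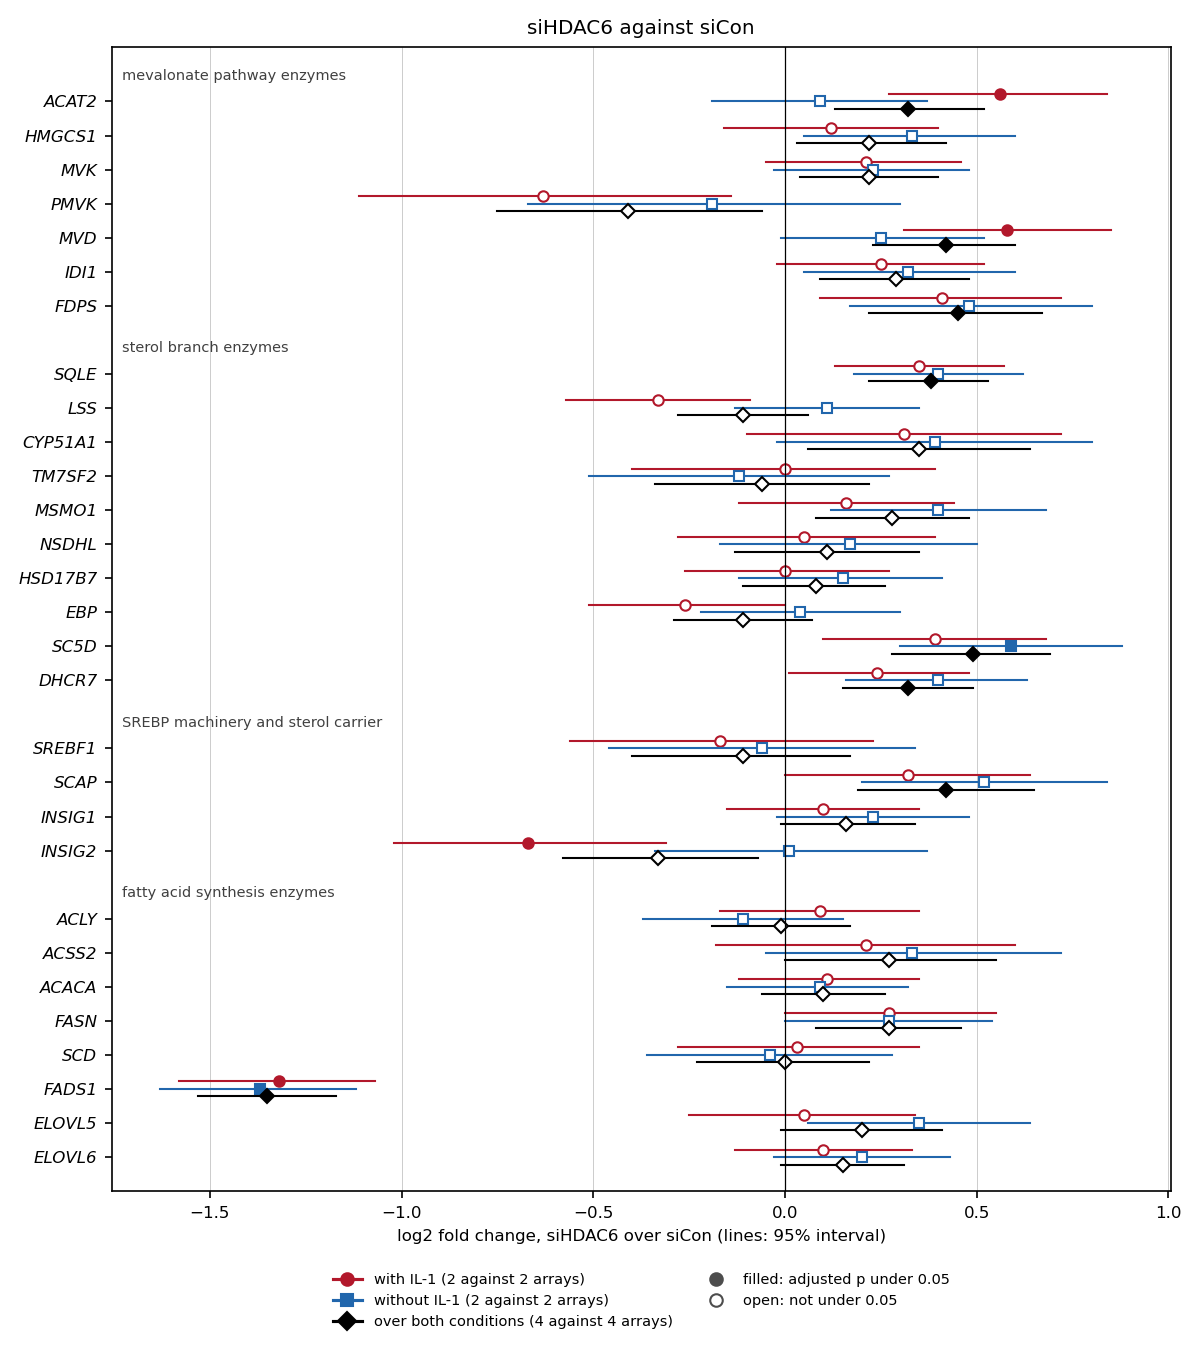
Log2 fold change of siHDAC6 over siCon (horizontal axis) for the 29 measured members, grouped by role down the page, with IL-1 (red circles), without IL-1 (blue squares) and over both conditions (black diamonds). Lines are 95% intervals and filled symbols passed an adjusted p under 0.05. FADS1 lies at -1.37 to -1.32, apart from all other members, and most sterol enzymes lie right of 0.

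The starts of these genes were read from RefSeq (GRCh38.p14) as windows of 300 bases, 250 before and 50 after the start, since a promoter window was listed for 26 of the 29 measured members (not for ACAT2, FASN or SQLE). Shown are the gene that fell with siHDAC6 (FADS1), 3 that rose (FDPS, MVD and SC5D) and the 2 that rose with IL-1 in siCon cells (LSS and INSIG2), each 5′ to 3′ on the strand of the gene. Capitals mark a CCAAT box (CCAAT, bound by NF-Y), a GC box (GGGCGG, bound by Sp1), an E-box (CACGTG) or a sterol regulatory element core (TCACNCCAC), searched on both strands, with each motif counted separately where matches overlap.
FADS1, chr11:61816954-61817253, minus strand: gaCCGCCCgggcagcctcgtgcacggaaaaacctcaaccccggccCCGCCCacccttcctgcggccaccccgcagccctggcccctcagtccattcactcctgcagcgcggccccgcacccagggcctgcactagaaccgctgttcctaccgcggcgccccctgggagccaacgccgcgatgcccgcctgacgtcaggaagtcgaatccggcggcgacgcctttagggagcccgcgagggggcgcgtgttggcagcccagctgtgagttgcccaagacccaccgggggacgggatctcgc
FDPS, chr1:155308616-155308915, plus strand: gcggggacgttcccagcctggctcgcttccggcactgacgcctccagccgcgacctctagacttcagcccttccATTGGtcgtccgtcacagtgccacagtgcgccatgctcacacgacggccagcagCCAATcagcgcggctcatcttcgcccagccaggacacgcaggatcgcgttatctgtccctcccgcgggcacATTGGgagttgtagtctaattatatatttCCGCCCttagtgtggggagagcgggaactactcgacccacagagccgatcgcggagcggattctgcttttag
MVD, chr16:88663042-88663341, minus strand: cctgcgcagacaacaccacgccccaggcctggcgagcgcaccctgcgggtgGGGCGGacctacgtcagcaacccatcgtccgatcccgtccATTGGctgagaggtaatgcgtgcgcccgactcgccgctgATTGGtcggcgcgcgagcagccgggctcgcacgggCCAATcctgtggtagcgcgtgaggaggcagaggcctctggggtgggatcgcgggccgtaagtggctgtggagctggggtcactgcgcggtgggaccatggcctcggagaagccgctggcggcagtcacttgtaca
SC5D, chr11:121292521-121292820, plus strand: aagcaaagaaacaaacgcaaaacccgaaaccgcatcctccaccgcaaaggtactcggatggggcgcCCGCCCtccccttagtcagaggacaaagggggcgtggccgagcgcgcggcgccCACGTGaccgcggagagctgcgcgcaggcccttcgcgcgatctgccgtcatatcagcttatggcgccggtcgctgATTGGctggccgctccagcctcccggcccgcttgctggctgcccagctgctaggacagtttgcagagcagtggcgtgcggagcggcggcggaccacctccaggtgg
LSS, chr21:46228725-46229024, minus strand: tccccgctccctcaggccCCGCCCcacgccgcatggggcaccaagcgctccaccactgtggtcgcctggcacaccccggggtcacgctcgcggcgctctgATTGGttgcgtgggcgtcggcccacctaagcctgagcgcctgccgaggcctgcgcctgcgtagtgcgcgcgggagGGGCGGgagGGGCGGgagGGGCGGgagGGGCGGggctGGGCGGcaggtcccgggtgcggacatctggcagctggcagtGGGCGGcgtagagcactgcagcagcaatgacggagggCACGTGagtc
INSIG2, chr2:118088221-118088520, plus strand: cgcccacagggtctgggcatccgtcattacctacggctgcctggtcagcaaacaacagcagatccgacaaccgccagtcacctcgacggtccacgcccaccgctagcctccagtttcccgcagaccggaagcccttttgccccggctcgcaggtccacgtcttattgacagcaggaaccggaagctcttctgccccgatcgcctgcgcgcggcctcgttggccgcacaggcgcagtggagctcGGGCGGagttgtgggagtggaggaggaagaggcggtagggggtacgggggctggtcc

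In the first listed window of each gene, a CCAAT box was present in 17 of the 26 members (65.4%). Among the 27305 genes with a window the share was 35.7%. A GC box was in 24 members (92.3%, against 44.6%) and an E-box in 5 (19.2%, against 7.43%). The sterol regulatory element core was in 0 of 26, against 1.15% of the 27305 genes. That says only that these letters are not in the members' windows. The 26 members were all measured, whereas the 27305 genes were not limited to those measured on these arrays. Shares among the measured genes alone were not counted. Whether the higher shares are particular to the members was therefore not tested. FDPS and MVD had 3 CCAAT boxes each, SC5D and LSS 1 each, and FADS1 and INSIG2 0. LSS had 7 GC boxes, FADS1 2, and FDPS, MVD, SC5D and INSIG2 1 each, and SC5D and LSS each held 1 E-box. FADS1 and FADS2 lie on opposite strands of chromosome 11, with the listed starts of FADS2 599 and 800 bases from that of FADS1. On which side of the FADS1 start these lie was not recorded. No binding was measured at these sites.

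FADS1, the delta-5 desaturase that makes arachidonic and eicosapentaenoic acid, showed the largest change of the set. Its normalized log2 signal was 7.19 on both siHDAC6 + IL-1 arrays, against 8.56 and 8.46 on siCon + IL-1 arrays, and 7.30 and 7.22 on siHDAC6 arrays, against 8.73 and 8.54 on siCon arrays. All 4 siHDAC6 arrays thus lay more than 1 log2 unit below all 4 siCon arrays. The log2 fold change was -1.32 with IL-1 (SE 0.11, 2.5-fold lower, adjusted p 9.3e-04 in limma), -1.37 without IL-1 (SE 0.11, 2.59-fold lower, adjusted p 0.0011) and -1.35 over both conditions (SE 0.08, adjusted p 9.2e-05). Over both conditions this was the 18th lowest value among the 11182 genes. The fall with IL-1 differed from that without IL-1 by 0.05 (95% interval -0.31 to 0.41, adjusted p 0.95), so that a difference between the conditions was not shown, and IL-1 itself moved FADS1 by -0.08 in siHDAC6 cells and -0.13 in siCon cells (adjusted p 0.72 and 0.46). The calls held in every alternative processing that was run and without each array in turn. FADS1 was measured by 1 probe, and its neighbour FADS2, the delta-6 desaturase, was not detected.

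The other fatty acid enzymes moved little. FASN, which assembles palmitate, had values of 11.93 and 11.88 in siHDAC6 + IL-1 against 11.58 and 11.69 in siCon + IL-1, and of 12.17 and 12.00 in siHDAC6 against 11.72 and 11.91 in siCon. The difference over both conditions, 0.27 (SE 0.08), had an adjusted p of 0.069. Its groups did not overlap within either condition, but such gaps between 2 and 2 arrays were common. With IL-1, 3232 of the 11182 genes had a gap upwards and 2628 downwards, and without IL-1 2961 and 2700. The elongase ELOVL5 was at 9.83 and 10.05 in siHDAC6 + IL-1 against 9.94 and 9.84 in siCon + IL-1, and at 10.08 and 9.84 in siHDAC6 against 9.65 and 9.58 in siCon. ELOVL6 was at 7.27 on both siHDAC6 + IL-1 arrays against 7.20 and 7.13 in siCon + IL-1, and at 7.41 and 7.28 in siHDAC6 against 7.11 and 7.18 in siCon. The ELOVL5 groups overlapped under IL-1, and those of ELOVL6 in neither condition. ELOVL5 and ELOVL6 differed by 0.20 (adjusted p 0.18) and 0.15 (adjusted p 0.21) over both conditions, and ACSS2, which activates acetate, by 0.27 (adjusted p 0.17). SCD, the stearoyl-CoA desaturase, differed by less than 0.01 (95% interval -0.23 to 0.22), ACLY, which cleaves citrate to acetyl-CoA, by -0.01 (95% interval -0.19 to 0.17), and ACACA, acetyl-CoA carboxylase, by 0.10 (95% interval -0.06 to 0.26).

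Within the mevalonate pathway 3 of 7 members rose with siHDAC6 over both conditions. MVD, which decarboxylates mevalonate diphosphate to the isoprene unit, was at 8.30 and 8.21 in siHDAC6 + IL-1 against 7.71 and 7.64 in siCon + IL-1, and at 8.07 and 7.89 in siHDAC6 against 7.81 and 7.64 in siCon. All 4 siHDAC6 arrays lay above all 4 siCon arrays, with the wider gap under IL-1. The log2 fold change was 0.58 with IL-1 (SE 0.11, adjusted p 0.024) and 0.42 over both conditions (SE 0.08, adjusted p 0.014). Without IL-1 it was 0.25 (adjusted p 0.28). Leaving out any one of the 4 arrays with IL-1 removed the call with IL-1 (adjusted p 0.059 to 0.13), and the call over both conditions without siHDAC6 + IL-1 replicate 1 (0.055), siHDAC6 replicate 1 (0.053) or siCon replicate 2 (0.055).

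FDPS, which makes farnesyl diphosphate, the branch point to sterols and prenyl groups, was at 8.15 and 7.94 in siHDAC6 + IL-1 against 7.57 and 7.70 in siCon + IL-1. Without IL-1 it was at 8.06 and 7.87 in siHDAC6 against 7.60 and 7.36 in siCon. Again no siHDAC6 array reached down to a siCon array. FDPS rose by 0.45 over both conditions (SE 0.10, adjusted p 0.021), with 0.41 under IL-1 and 0.48 without, neither of which passed on its own (adjusted p 0.11 and 0.098). The call was lost without siHDAC6 + IL-1 replicate 1 (adjusted p 0.073), siCon + IL-1 replicate 1 (0.052), siHDAC6 replicate 1 (0.072) or siCon replicate 2 (0.070).

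ACAT2, the cytosolic thiolase that joins acetyl-CoA units, was at 8.24 and 8.42 in siHDAC6 + IL-1 against 7.82 and 7.72 in siCon + IL-1, and at 8.15 and 8.21 in siHDAC6 against 8.21 and 7.97 in siCon. The groups were apart under IL-1, which was common among all genes, and overlapped without it. The gene was called higher with IL-1 (0.56, SE 0.12, adjusted p 0.034) and over both conditions (0.32, SE 0.09, adjusted p 0.043). These calls rest on 1 of 2 probes. The dimmer probe, detected on 7 arrays, differed by 1.05 with IL-1 (adjusted p 0.030 among all probes) and the brighter one by 0.06 (adjusted p 0.83). With the brighter probe alone there was no call, and the call over both conditions was lost when any 1 array was left out (adjusted p 0.051 to 0.13). The call with IL-1 was lost without any array other than the siCon replicates (adjusted p 0.058 to 0.17).

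The remaining mevalonate enzymes were not called for siHDAC6. HMGCS1, which makes HMG-CoA, differed by 0.22 over both conditions (adjusted p 0.12), IDI1, which isomerises isopentenyl diphosphate, by 0.29 (adjusted p 0.061), and MVK, mevalonate kinase, by 0.22 (adjusted p 0.11). PMVK, phosphomevalonate kinase, had the opposite sign. It was at 6.13 and 5.74 in siHDAC6 + IL-1 against 6.42 and 6.71 in siCon + IL-1, and at 6.32 and 6.44 in siHDAC6 against 6.29 and 6.84 in siCon. The difference was -0.63 with IL-1 (SE 0.21, adjusted p 0.11).

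In the sterol branch SQLE, SC5D and DHCR7 rose with siHDAC6 over both conditions. SQLE, the squalene epoxidase and a rate-limiting step, was at 10.36 and 10.31 in siHDAC6 + IL-1 against 9.98 and 9.99 in siCon + IL-1. Without IL-1 it was at 10.11 and 10.05 in siHDAC6 against 9.67 and 9.69 in siCon. The duplicates lay within 0.06 of each other in each group, and the 4 siHDAC6 arrays were above the 4 siCon arrays. SQLE rose by 0.38 over both conditions (SE 0.07, adjusted p 0.010), and its log2 fold change was 0.35 with IL-1 and 0.40 without (adjusted p 0.063 and 0.061). Its 2 probes gave 0.36 and 0.39 over both conditions, and the call held without each array in turn.

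SC5D, the lathosterol oxidase near the end of the pathway, was at 10.56 on both siHDAC6 + IL-1 arrays against 10.22 and 10.13 in siCon + IL-1, and at 10.51 and 10.54 in siHDAC6 against 9.78 and 10.10 in siCon. The siHDAC6 arrays were nearly equal, and the siCon arrays lower and more spread. SC5D rose by 0.49 over both conditions (SE 0.09, adjusted p 0.011), a call that held without each array in turn. Without IL-1 it was 0.59 (SE 0.12, adjusted p 0.044), a call lost when any 1 of the 8 arrays was left out (adjusted p 0.057 to 0.19). With IL-1 it was 0.39 (adjusted p 0.10). When no detection filter was used, which brought in 2 further probes of SC5D, detected on 1 and 0 arrays, neither call remained.

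DHCR7, which carries out the last reduction to cholesterol, was at 10.33 and 10.34 in siHDAC6 + IL-1 against 10.13 and 10.06 in siCon + IL-1, and at 10.35 and 10.49 in siHDAC6 against 9.98 and 10.06 in siCon. All siHDAC6 arrays were above all siCon arrays. DHCR7 rose by 0.32 over both conditions (SE 0.07, adjusted p 0.025). The call held without siCon + IL-1 replicate 1 or siHDAC6 replicate 1 but not without any of the other arrays (adjusted p 0.061 to 0.083). Among the uncalled sterol enzymes, CYP51A1, lanosterol demethylase, differed by 0.35 (adjusted p 0.11) and MSMO1, a methylsterol oxidase, by 0.28 (adjusted p 0.068) over both conditions. NSDHL, HSD17B7 and TM7SF2, which act between lanosterol and the later sterols, differed by 0.11, 0.08 and -0.06 (adjusted p 0.53 to 0.78). HSD17B7 and FDPS have pseudogene copies in the genome, and whether their probes tell them apart was not tested.

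Over both conditions no overlap between the 4 siHDAC6 arrays and the 4 siCon arrays was seen for 7 members with higher values (MVD, FDPS, SQLE, SC5D, DHCR7, SCAP and ELOVL6) and for 1 with lower values (FADS1). Among all genes 6.53% had such a gap upwards and 5.29% downwards.

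**Figure D2:**
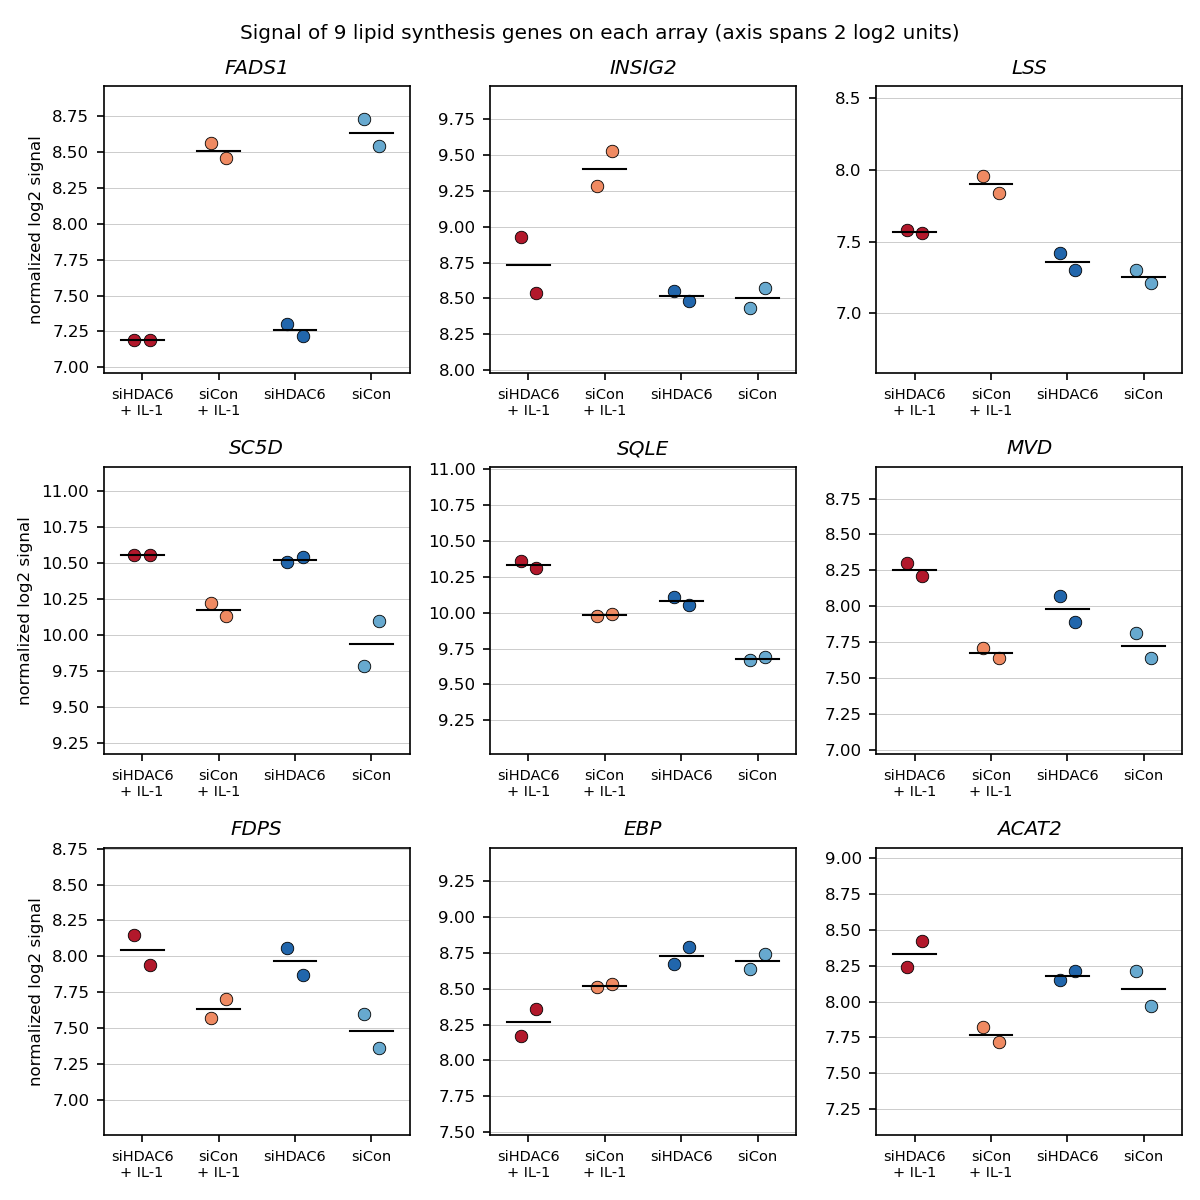
Normalized log2 signal (vertical axis) of 9 members on each of the 8 arrays, with the groups side by side on the horizontal axis. Points are arrays and bars are the mean of the 2 arrays of a group. FADS1 is lower on all 4 siHDAC6 arrays, SQLE, MVD, FDPS and SC5D are higher on them, and INSIG2 and LSS are highest in siCon + IL-1.

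Of the genes that control SREBP, SCAP rose with siHDAC6. It was at 8.56 and 8.55 in siHDAC6 + IL-1 against 8.05 and 8.42 in siCon + IL-1, and at 8.66 and 8.78 in siHDAC6 against 8.13 and 8.26 in siCon. SCAP rose by 0.42 over both conditions (SE 0.10, adjusted p 0.029), with 0.32 under IL-1 and 0.52 without (adjusted p 0.21 and 0.086). The call over both conditions held without siCon + IL-1 replicate 2 and was lost without any other array (adjusted p 0.051 to 0.094). SREBF1, which encodes the SREBP of fatty acid synthesis, differed by -0.11 (95% interval -0.40 to 0.17), and INSIG1 by 0.16 (SE 0.08, adjusted p 0.19). INSIG1 was at 10.14 and 10.15 in siHDAC6 + IL-1 against 10.12 and 9.96 in siCon + IL-1, and at 10.15 and 10.05 in siHDAC6 against 9.81 and 9.93 in siCon, values without overlap in either condition, which was common among all genes. These values average 2 probes that disagreed, with 0.32 and 0.01 over both conditions (adjusted p 0.071 and 0.95 among all probes) and 0.29 and -0.09 with IL-1. INSIG1 was called over both conditions when the brighter probe alone stood for the gene, and also with the log2 values deposited by the authors.

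INSIG2, the paralog of INSIG1 that is less dependent on SREBP, was set apart by IL-1. It was at 8.93 and 8.54 in siHDAC6 + IL-1, 9.28 and 9.53 in siCon + IL-1, 8.55 and 8.48 in siHDAC6 and 8.43 and 8.57 in siCon. The siCon + IL-1 arrays were thus above all 6 others, and the siHDAC6 + IL-1 duplicates were 0.39 apart. Without IL-1, siHDAC6 and siCon differed by 0.01 (95% interval -0.34 to 0.37). With IL-1 INSIG2 was lower in siHDAC6 cells by 0.67 on the log2 scale (a log2 fold change of -0.67, SE 0.15, 1.59-fold, adjusted p 0.040). This call held without siHDAC6 + IL-1 replicate 1 and was lost without any of the other 7 arrays (adjusted p 0.055 to 0.18), and also with the replicate block (the replicate number as a term of the model), without a detection filter and in a fit of the 4 arrays alone.

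To ask what IL-1 did to these genes, IL-1 was compared with no IL-1 in siHDAC6 cells, in siCon cells and over both siRNAs. In siHDAC6 cells EBP alone was called, and lower, where 5.99% of all genes were called higher and 4.27% lower. In siCon cells INSIG2 and LSS were called higher and 0 members lower, where 9.37% of all genes were called higher and 11.2% lower. Over both siRNAs, 5 members rose (HMGCS1, IDI1, SQLE, LSS and INSIG2) and EBP fell, where 10.9% of all genes were called higher and 16.1% lower.

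INSIG2 rose with IL-1 by 0.90 in siCon cells (SE 0.15, 1.87-fold, adjusted p 0.0051), a call that held in every alternative that was run and without each array in turn. In siHDAC6 cells its log2 fold change was 0.22 (SE 0.15, adjusted p 0.42). LSS, which closes squalene epoxide to lanosterol, was at 7.58 and 7.56 in siHDAC6 + IL-1 against 7.42 and 7.30 in siHDAC6, and at 7.96 and 7.84 in siCon + IL-1 against 7.30 and 7.21 in siCon. The siCon + IL-1 arrays were the highest of the 8, and the siHDAC6 + IL-1 arrays the next. LSS rose by 0.65 in siCon cells (SE 0.10, 1.57-fold, adjusted p 0.0037) and was 0.21 higher in siHDAC6 cells (adjusted p 0.26). Each of its 3 probes passed in siCon cells, with 0.82, 0.49 and 0.63 (adjusted p 0.0043, 0.049 and 0.0090 among all probes). In siHDAC6 cells the same probes disagreed, with -0.05, 0.28 and 0.40 (adjusted p 0.87, 0.30 and 0.087).

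Whether these IL-1 responses differed between siHDAC6 and siCon cells was tested as the difference of the 2 responses. Of the 29 members 0 passed, where 0.00894% of all genes passed upwards and 0.107% downwards. At an unadjusted p under 0.05 there were 1 higher (ACAT2, 0.46) and 2 lower (INSIG2 and LSS) of 29. Of all 11182 genes, 547 were higher and 569 lower at that threshold, so the count is no result about the members. The difference was -0.68 for INSIG2 (95% interval -1.18 to -0.18, adjusted p 0.38) and -0.44 for LSS (95% interval -0.78 to -0.10, adjusted p 0.40). A weaker IL-1 response of these genes in siHDAC6 cells was therefore not shown after adjustment.

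**Figure D3:**
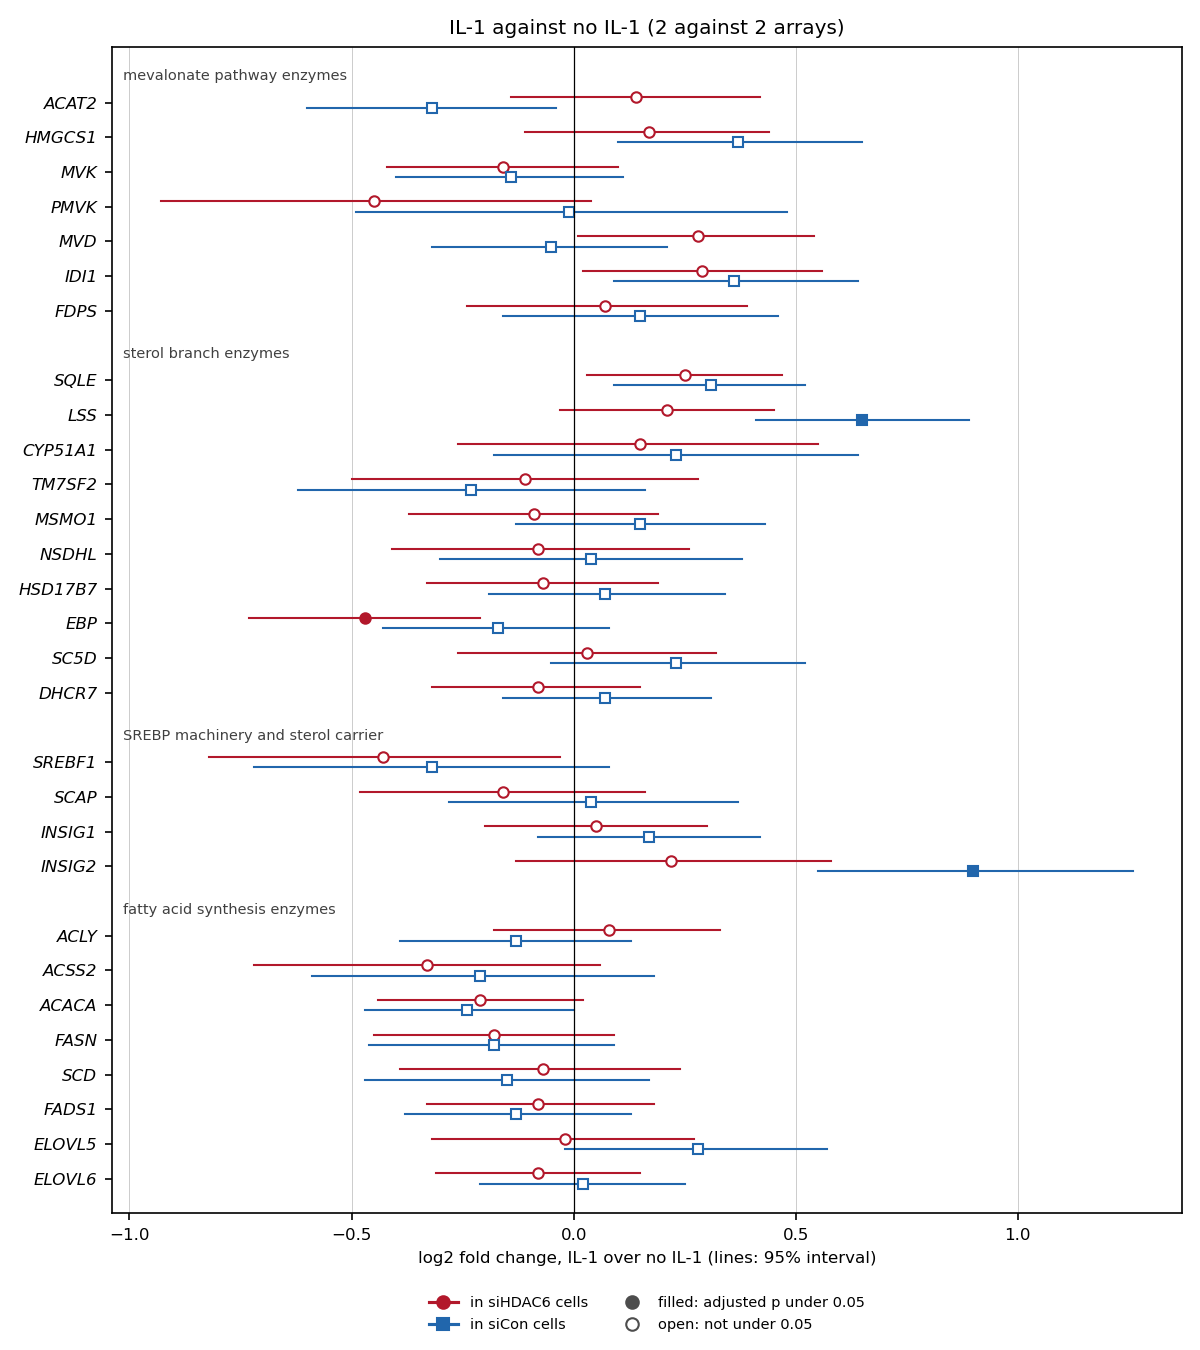
Log2 fold change of IL-1 over no IL-1 (horizontal axis) in siHDAC6 cells (red circles) and siCon cells (blue squares) for the 29 measured members, grouped by role, with 95% intervals. Filled symbols passed an adjusted p under 0.05. INSIG2 at 0.90 and LSS at 0.65 passed in siCon cells and EBP at -0.47 in siHDAC6 cells.

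EBP, the sterol isomerase, was at 8.17 and 8.36 in siHDAC6 + IL-1 against 8.67 and 8.79 in siHDAC6, and at 8.51 and 8.53 in siCon + IL-1 against 8.64 and 8.74 in siCon. All 4 arrays with IL-1 were below the 4 without. EBP fell by 0.47 in siHDAC6 cells (SE 0.11, adjusted p 0.035) and by 0.32 over both siRNAs (SE 0.08, adjusted p 0.020), and its value in siCon cells was -0.17 (adjusted p 0.32). The call in siHDAC6 cells held without either siCon + IL-1 array and was lost without any other (adjusted p 0.058 to 0.19). The call over both siRNAs was lost without siHDAC6 + IL-1 replicate 1, siHDAC6 replicate 2 or siCon replicate 2 (adjusted p 0.067 each).

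HMGCS1, IDI1 and SQLE, which lie along the route to squalene epoxide, were called higher with IL-1 when both siRNAs were pooled and in neither siRNA alone. IDI1 was at 8.16 and 8.20 in siHDAC6 + IL-1 against 7.88 and 7.90 in siHDAC6, and at 7.90 and 7.96 in siCon + IL-1 against 7.71 and 7.43 in siCon. HMGCS1 was at 11.74 and 11.54 in siHDAC6 + IL-1 against 11.40 and 11.55 in siHDAC6, and at 11.50 and 11.54 in siCon + IL-1 against 11.06 and 11.22 in siCon. For HMGCS1 the IL-1 arrays overlapped those without IL-1 in siHDAC6 cells and not in siCon cells. Over both siRNAs IDI1 rose by 0.33 (SE 0.08, adjusted p 0.024), SQLE by 0.28 (SE 0.07, adjusted p 0.018) and HMGCS1 by 0.27 (SE 0.08, adjusted p 0.049). The HMGCS1 call was lost when any 1 array was left out (adjusted p 0.052 to 0.15). That of IDI1 held without siCon + IL-1 replicate 1 or siCon replicate 1 and was lost without any other (adjusted p 0.061 to 0.069), and that of SQLE was lost without siHDAC6 + IL-1 replicate 1, siHDAC6 replicate 2 or siCon replicate 1 (adjusted p 0.056 to 0.061).

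With arrays scaled by their medians, INSIG2 was the single member called for IL-1 in siCon cells and over both siRNAs. That scaling moved the median of all genes for IL-1 in siCon cells to -0.25, against -0.09 with quantile normalization, and the median of the members to -0.16, against 0.04. Relative to all genes the members' median was thus above in both.

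Of the fatty acid enzymes 7 of 8 were below 0 with IL-1 over both siRNAs and 0 were called. Their median was -0.11, near that of all genes (-0.08), of which 7046 of 11182 were below 0. ACACA was at 9.24 and 9.10 in siHDAC6 + IL-1 against 9.38 and 9.38 in siHDAC6, and at 9.03 and 9.08 in siCon + IL-1 against 9.27 and 9.31 in siCon. All IL-1 arrays were below all others, as for 13.6% of all genes, and the difference over both siRNAs was -0.22 (SE 0.07, adjusted p 0.052). ELOVL5, which elongates polyunsaturated chains, differed by 0.28 in siCon cells (adjusted p 0.17) and by -0.02 in siHDAC6 cells. SREBF1 was at 6.14 and 6.33 in siHDAC6 + IL-1 against 6.68 and 6.65 in siHDAC6, and at 6.13 and 6.67 in siCon + IL-1 against 6.75 and 6.70 in siCon, a difference of -0.37 over both siRNAs (SE 0.12, adjusted p 0.056). Its 3 probes differed: 1 fell by 0.64 (adjusted p 0.0032 among all probes), and the others had values of -0.29 and -0.19 (adjusted p 0.28 and 0.37). INSIG1, whose transcript is itself an SREBP target, differed by 0.05 with IL-1 in siHDAC6 cells and by 0.17 in siCon cells (adjusted p 0.83 and 0.30).

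**Figure D4:**
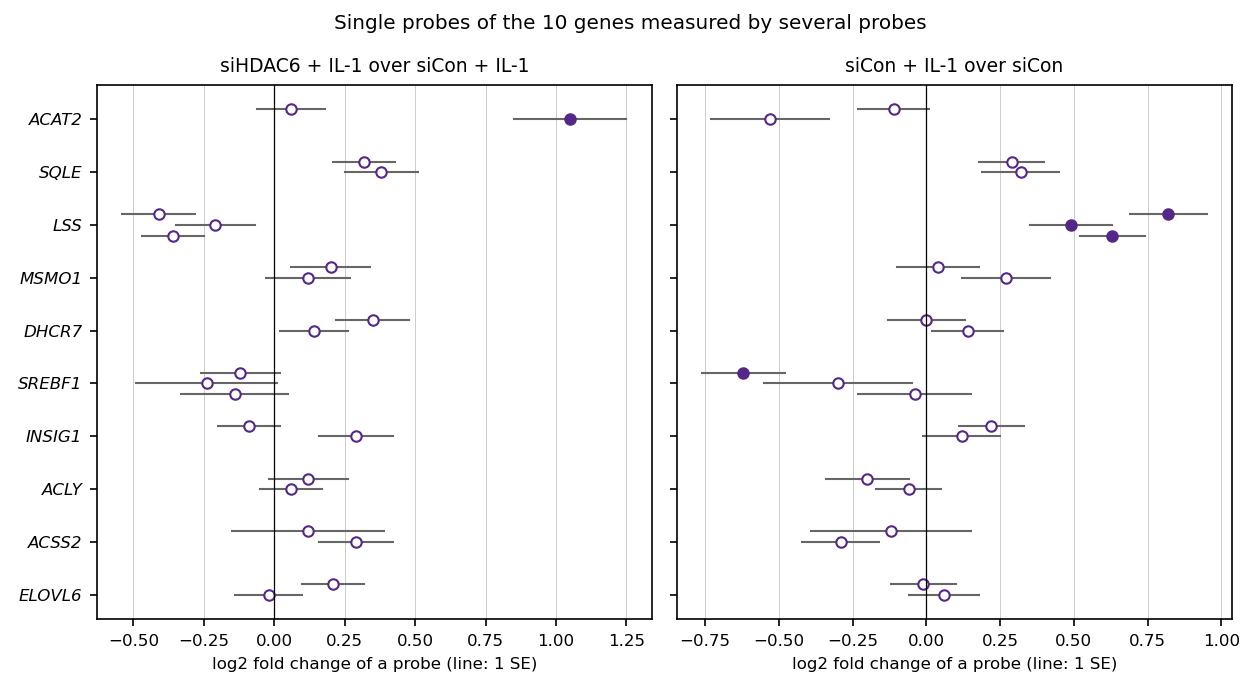
Log2 fold change of each probe (horizontal axis, lines are 1 SE) for the 10 members with several kept probes, in siHDAC6 + IL-1 over siCon + IL-1 (left) and siCon + IL-1 over siCon (right). Filled points passed an adjusted p under 0.05 among all probes. The 3 LSS probes lie between 0.49 and 0.82 with IL-1, while the ACAT2 probes lie at 0.06 and 1.05 with siHDAC6.

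Genes near the pathway gave further values, to be read beside the shares of all genes called, which were 7.29% higher and 6.90% lower for siHDAC6 over both conditions and 9.37% higher and 11.2% lower for IL-1 in siCon cells. A single call in a list of 8 to 13 genes is therefore no result about that list. Of 12 genes that process SREBP or are other targets of it, 10 were measured. TMEM97, a sterol-responsive membrane protein, was at 10.53 and 10.56 in siHDAC6 + IL-1 against 10.21 and 9.98 in siCon + IL-1, and at 10.54 and 10.52 in siHDAC6 against 10.12 and 9.96 in siCon, and rose by 0.47 over both conditions (adjusted p 0.0097). It was the 1 gene of 10 called for siHDAC6 over both conditions. With IL-1 in siCon cells 2 of these 10 fell, GPAM, which starts glycerolipid synthesis, by 0.58 (adjusted p 0.016) and ACAT1, the mitochondrial thiolase, by 0.38 (adjusted p 0.045).

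Of 15 genes of sterol transport and storage, 13 were measured. With IL-1 in siCon cells ABCA1, the exporter of cholesterol, rose by 1.02 (adjusted p 0.0028) and LIPA, the lysosomal acid lipase, by 0.62 (adjusted p 0.0080). VLDLR, a lipoprotein receptor, fell by 0.47 (adjusted p 0.020). MYLIP, a ubiquitin ligase of such receptors, fell by 0.58 in siHDAC6 cells (adjusted p 0.017), and its fall of 0.41 in siCon cells (adjusted p 0.041) is given after its value was seen. With siHDAC6 over both conditions 1 of the 13 fell, NPC1, which exports cholesterol from lysosomes, by 0.45 (adjusted p 0.013), and 0 rose. Of 9 genes of the isoprenoid branch 8 were measured, and FNTA, a subunit of farnesyl and geranylgeranyl transferases, fell by 0.31 with siHDAC6 over both conditions (adjusted p 0.045) while 0 of the 8 were called for IL-1 in either siRNA.

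Of 18 genes that activate and elongate fatty acids or make triglyceride, 16 were measured. With IL-1, 3 were called higher and 1 lower in siHDAC6 cells, where 5.99% of all genes were called higher and 4.27% lower. In siCon cells 3 were called higher and 2 lower with IL-1. ACSL1, a long-chain acyl-CoA synthetase, was at 7.43 and 7.68 in siHDAC6 + IL-1 against 6.05 and 6.37 in siHDAC6, and at 8.46 and 8.12 in siCon + IL-1 against 7.17 and 6.50 in siCon. It rose with IL-1 by 1.35 in siHDAC6 cells (adjusted p 0.010) and by 1.45 in siCon cells (adjusted p 0.0040), and ACSL5 rose by 0.86 in siHDAC6 cells (adjusted p 0.017) and by 0.91 in siCon cells (adjusted p 0.0079). ELOVL4, which makes very long chains and was chosen after its values were seen, fell with IL-1 by 0.38 in siHDAC6 cells (adjusted p 0.045) and by 0.61 in siCon cells (adjusted p 0.0033). With siHDAC6 over both conditions 1 of the 16 was called higher, ELOVL4, by 0.25 (adjusted p 0.046), and 3 lower. ACSL1 fell by 0.68 (adjusted p 0.035) and LPIN2, a phosphatidate phosphatase, by 0.36 (adjusted p 0.016). The other calls in these counts were ELOVL7, an elongase, higher with IL-1, and PLIN2, a lipid droplet coat protein, lower with siHDAC6 and, among siCon cells, with IL-1. ELOVL7 passed the detection filter through 3 arrays with IL-1 alone and PLIN2 through the 2 siCon arrays alone, the groups where each was higher, so that nothing is read from their calls.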

How the data were processed

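Total RNA of SW1353 cells was profiled on 8 Illumina whole-genome arrays, 2 per group. For each probe the authors deposited an unnormalized signal intensity and its detection p-value, and a table of log2 values that they made with lumi (variance-stabilising transformation and robust spline normalization, version not given in the sources used here), which ranks probes on each array as the signal does. Probes were named by the platform annotation, with 27578 of 48803 carrying 1 symbol, 13 several and 21212 none listed.

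Signals were processed with neqc of limma 3.58.1 (R 4.3.3, statmod 1.5.0), which corrects background from the detection p-values, applies quantile normalization and takes log2, with an offset of 16. Detection (p under 0.05) on 2 or more of 8 arrays kept 18045 probes, and the 14483 with 1 symbol were averaged to 11182 genes. All 8 arrays entered 1 linear model with a mean for each group (lmFit and eBayes, 4 residual and 3.79 prior degrees of freedom). From it 7 contrasts were taken, and p-values were adjusted by Benjamini-Hochberg over all genes of a contrast. Log2 fold changes are siHDAC6 minus siCon, or IL-1 minus no IL-1, and understate changes of dim genes. A fold against a group below background is a lower bound against the dimmest detected probe (4.90 to 5.17). The 2-array and 4-array comparisons share arrays.

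Described with each array's value are members called in any contrast, the 2 with the largest change per role in siHDAC6 with IL-1 and in IL-1 in siCon cells, and paralogs. For the other lists, up to 3 called genes were named per contrast, and beyond these ELOVL4, MYLIP and PLIN2, chosen after their values were seen. Members and lists were chosen with earlier results of these data known. The number of arrays limits the precision. The workflow was tested on simulated data.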

Additional observations from a re-analysis of the deposited data

How the results depend on the processing

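Of the 23 calls described for single members, 286 of 400 values under other settings kept the call, 114 had the same sign without it, and 0 changed sign. FADS1 with siHDAC6 and INSIG2 with IL-1 in siCon cells kept their calls throughout. The number of members called depended more on the setting, and the cause was not tested. The order below is IL-1 in siCon cells (2 members as reported), IL-1 in siHDAC6 cells (1), siHDAC6 without IL-1 (2), with IL-1 (4), and over both conditions (8).

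Calls among all 11182 genes, 815 higher and 772 lower as reported for siHDAC6 over both conditions, moved with the setting too. The member counts below are therefore no result about the members alone. With the authors' log2 values the counts were 7, 3, 9, 8 and 15. Of all genes 1264 were then called higher and 1151 lower over both conditions. With eBayes with trend and robust settings the counts were 6, 2, 9, 9 and 15, and of all genes 1181 were higher and 1024 lower over both conditions. Without background correction the counts that moved by over 1.5 times were 5 for IL-1 in siCon cells, 7 without and 7 with IL-1, and 14 over both conditions, and with an offset of 50 they were 5, 7, 7 and 13. Over both conditions, all genes called were 1177 higher and 1055 lower without background correction, and 1107 and 1001 with that offset. A stricter detection filter gave 5 for IL-1 in siCon cells, 2 for IL-1 in siHDAC6 cells and 5 for siHDAC6 without IL-1, and the probe with the highest mean gave 2 for IL-1 in siHDAC6 cells. For siHDAC6 without IL-1 the stricter filter called 372 of 9173 genes higher and 417 lower, against 183 and 270 of 11182 as reported. Median scaling gave 1, 0, 1, 1 and 1, and 1 for IL-1 over both siRNAs (6 as reported). It moved the median of all genes for siHDAC6 with IL-1 to 0.15, against 0.03, and the members' median to 0.24, against 0.11. With median scaling 242 of all genes were called higher and 242 lower for siHDAC6 over both conditions. A fit of only the 4 arrays compared gave 0 for IL-1 in siHDAC6 cells, 1 for siHDAC6 without IL-1 and 1 with IL-1. For siHDAC6, these fits called 52 of all genes higher and 126 lower without IL-1, and 83 and 193 with IL-1. Each probe on its own, an alternative chosen after seeing the data, gave 3, 3 and 7 members for IL-1 in siCon cells and for siHDAC6 with IL-1 and over both conditions.

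Same-numbered arrays showed little in common: their deviations from their group means correlated at -0.04 to 0.05. Whether equal replicate numbers mark samples handled together is not stated in the labels, and these values cannot settle it. With the replicate block the counts for siHDAC6 were 1 without IL-1, 2 with IL-1 and 7 over both conditions. Of all genes 686 were then called higher and 675 lower over both conditions. Leaving out 1 array at a time gave a members' median of 0.14 to 0.21 for siHDAC6 over both conditions (all genes 0.01 to 0.02). Fewer members and fewer of all genes were then called in that comparison, so the loss is no result about the members. Where this left a group with 1 array, that array was assumed to vary like the other groups. A block by slide was not run, since no slide was named. With 2 arrays per group, the number of arrays limits what can be called.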

Other observations

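The genes beside FADS1 in the RefSeq gene order, looked at after its values were seen, gave the following log2 fold changes for siHDAC6 over both conditions. FEN1, a flap endonuclease, was at 0.16 (adjusted p 0.20), TMEM258 at 0.03 (adjusted p 0.81), MYRF at -0.03 (adjusted p 0.89), DAGLA at 0.19 (adjusted p 0.30) and FADS3 at -0.20 (adjusted p 0.35, detected on 3 arrays). RAB3IL1, a guanine nucleotide exchange factor, fell by 0.87 (SE 0.07, adjusted p 4.3e-04). It was at 8.09 and 8.10 in siHDAC6 + IL-1 against 8.84 and 8.69 in siCon + IL-1, and at 8.58 and 8.62 in siHDAC6 against 9.68 and 9.66 in siCon. All 4 siHDAC6 arrays lay below all 4 siCon arrays. FADS2 and BEST1, also in this stretch, were not measured past the detection filter.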
